A study of Homo sapiens with 8 samples.

Results

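The loci of 10 genes that build or cut the extracellular matrix were examined for binding of CTCF in HT1080 cells, a human fibrosarcoma line, before and after treatment with CBL0137. The genes were COL1A1 and COL1A2, COL3A1, COL5A1 and COL5A2, COL6A1 and COL6A2, FN1, MMP2 and MMP14. Each locus was taken as the gene body in GENCODE on hg19 (GRCh37) plus 100 kb on each side, and overlapping windows were merged (COL3A1 with COL5A2, and COL6A1 with COL6A2), which gave 8 windows of 2.46 Mb in all. They held 76 of the 47470 CTCF peaks of the control list and 54 of the 29558 peaks of the treated list.

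Control cells were HT1080 without the drug, and treated cells were HT1080 exposed to 3 µM CBL0137 for 6 h. The labels mark the line as ras + for its oncogene, which both groups share. Binding was measured by chromatin immunoprecipitation with an anti-CTCF antibody and sequencing (ChIP-seq), and each condition had ChIP and input DNA from 2 biological replicates, 8 libraries in all. The comparison asks which CTCF sites of the control cells were still called after the drug. The lists pool the replicates and hold no read count, so no value below has a replicate error or a test, and the reads behind a peak are not given.

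CTCF is a zinc-finger protein that binds a conserved DNA motif and holds chromatin loops and domain boundaries together with cohesin. CBL0137 is a curaxin, a small molecule that intercalates into DNA and disturbs nucleosomes. Fibroblast-like cells owe much of their identity to the matrix they secrete, though expression of these genes in HT1080 cells was not examined here. Type I, III and V collagen chains assemble into fibrils, type VI collagen into beaded filaments and fibronectin into a meshwork on the cell surface, while the metalloproteinase MMP2 degrades matrix proteins and MMP14, anchored in the membrane, cuts collagen and activates MMP2.

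The sequences under the peaks closest to the starts of COL1A1, COL1A2, COL6A2 and MMP14 are given here because these were the 4 starts with a control peak centred within 1 kb, and their fates differed. They are read from hg19 in the direction of transcription and overlap no annotated untranslated region. Capitals mark the match to the CTCF core consensus with at most 1 mismatch. It was searched on both strands within 200 bp of each peak centre. Only the best match of a peak is marked, and among equal ones the match nearest the centre. Stretches in lower case can also match with 1 mismatch, as in the COL1A1 and MMP14 sequences. The marked match of COL1A1 and that of COL1A2 lie on the strand opposite to the one printed. The COL6A2 peak held no match with at most 1 mismatch.
COL1A1, chr17:48278001-48278300, minus strand: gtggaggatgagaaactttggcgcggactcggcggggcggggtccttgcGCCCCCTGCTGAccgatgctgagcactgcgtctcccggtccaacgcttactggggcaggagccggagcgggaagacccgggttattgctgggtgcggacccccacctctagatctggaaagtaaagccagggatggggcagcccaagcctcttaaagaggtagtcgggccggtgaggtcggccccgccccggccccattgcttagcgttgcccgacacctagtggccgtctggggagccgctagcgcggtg
COL1A2, chr7:94024776-94025075, plus strand: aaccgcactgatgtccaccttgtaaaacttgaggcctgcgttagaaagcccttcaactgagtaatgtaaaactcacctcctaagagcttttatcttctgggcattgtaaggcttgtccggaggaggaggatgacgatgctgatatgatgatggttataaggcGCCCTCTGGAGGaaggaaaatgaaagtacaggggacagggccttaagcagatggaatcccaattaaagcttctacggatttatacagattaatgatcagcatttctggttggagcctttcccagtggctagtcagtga
COL6A2, chr21:47517851-47518000, plus strand: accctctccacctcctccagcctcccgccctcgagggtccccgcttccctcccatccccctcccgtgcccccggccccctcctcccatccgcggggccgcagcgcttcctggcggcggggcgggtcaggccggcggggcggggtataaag
MMP14, chr14:23305451-23305750, plus strand: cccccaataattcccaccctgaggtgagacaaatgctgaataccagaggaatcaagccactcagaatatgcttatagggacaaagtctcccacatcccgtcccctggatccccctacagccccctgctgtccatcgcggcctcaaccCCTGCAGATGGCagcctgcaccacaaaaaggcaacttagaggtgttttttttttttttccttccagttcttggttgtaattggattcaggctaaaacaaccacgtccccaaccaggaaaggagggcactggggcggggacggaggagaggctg

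Of the 76 control peaks, 26 were lost, which means that no treated peak overlapped them by any length, and 50 were kept. The lost share was 34.2% (95% Wilson interval 24.5 to 45.4), where 42.9% of all control peaks were lost. This interval, like the others below, covers counting error only, and it included the share of all peaks. Restricted to the strongest control peaks, as many as the treated list holds, the lost share was 12%, against 24.6% of all such peaks. Restricted to control peaks with an FDR of at most 1e-05, it was 17.3%, against 29.3%. Each of the 50 kept peaks had its own treated partner. A further 4 of the 54 treated peaks, or 7.41%, had arisen without a control peak, against 8.07% of the whole treated list. Control peaks were denser here than over the genome, at 30.8 against 15.3 peaks per Mb. By window the density ran from 17.7 at COL3A1 with COL5A2 to 87.3 at COL1A1. The genome value includes regions without genes, and the density around other genes was not measured. The treated list was 71.1% as long as the control list within the windows and 62.3% as long overall.

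The authors also compared the conditions directly, and the positions of the sites they called served as a second readout. A site higher in control cells lay on 32 of the 76 control peaks (42.1%, against 51.2% of all control peaks). Such a site lay on 18 of the 26 lost peaks (69.2%, against 78.4% of all lost peaks) and on 14 of the 50 kept peaks (28%, against 30.8%). A site higher in CBL0137-treated cells lay on 3 of the 76 control peaks (3.95%, against 2.41% of all). These 3 were the peak at the COL6A2 start, an intronic peak near the end of MMP14 and a peak upstream of MMP2. In all, 36 of the 76 peaks (47.4%, against 39.5%) were neither lost nor at a site higher in control cells.

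**Figure D1:**
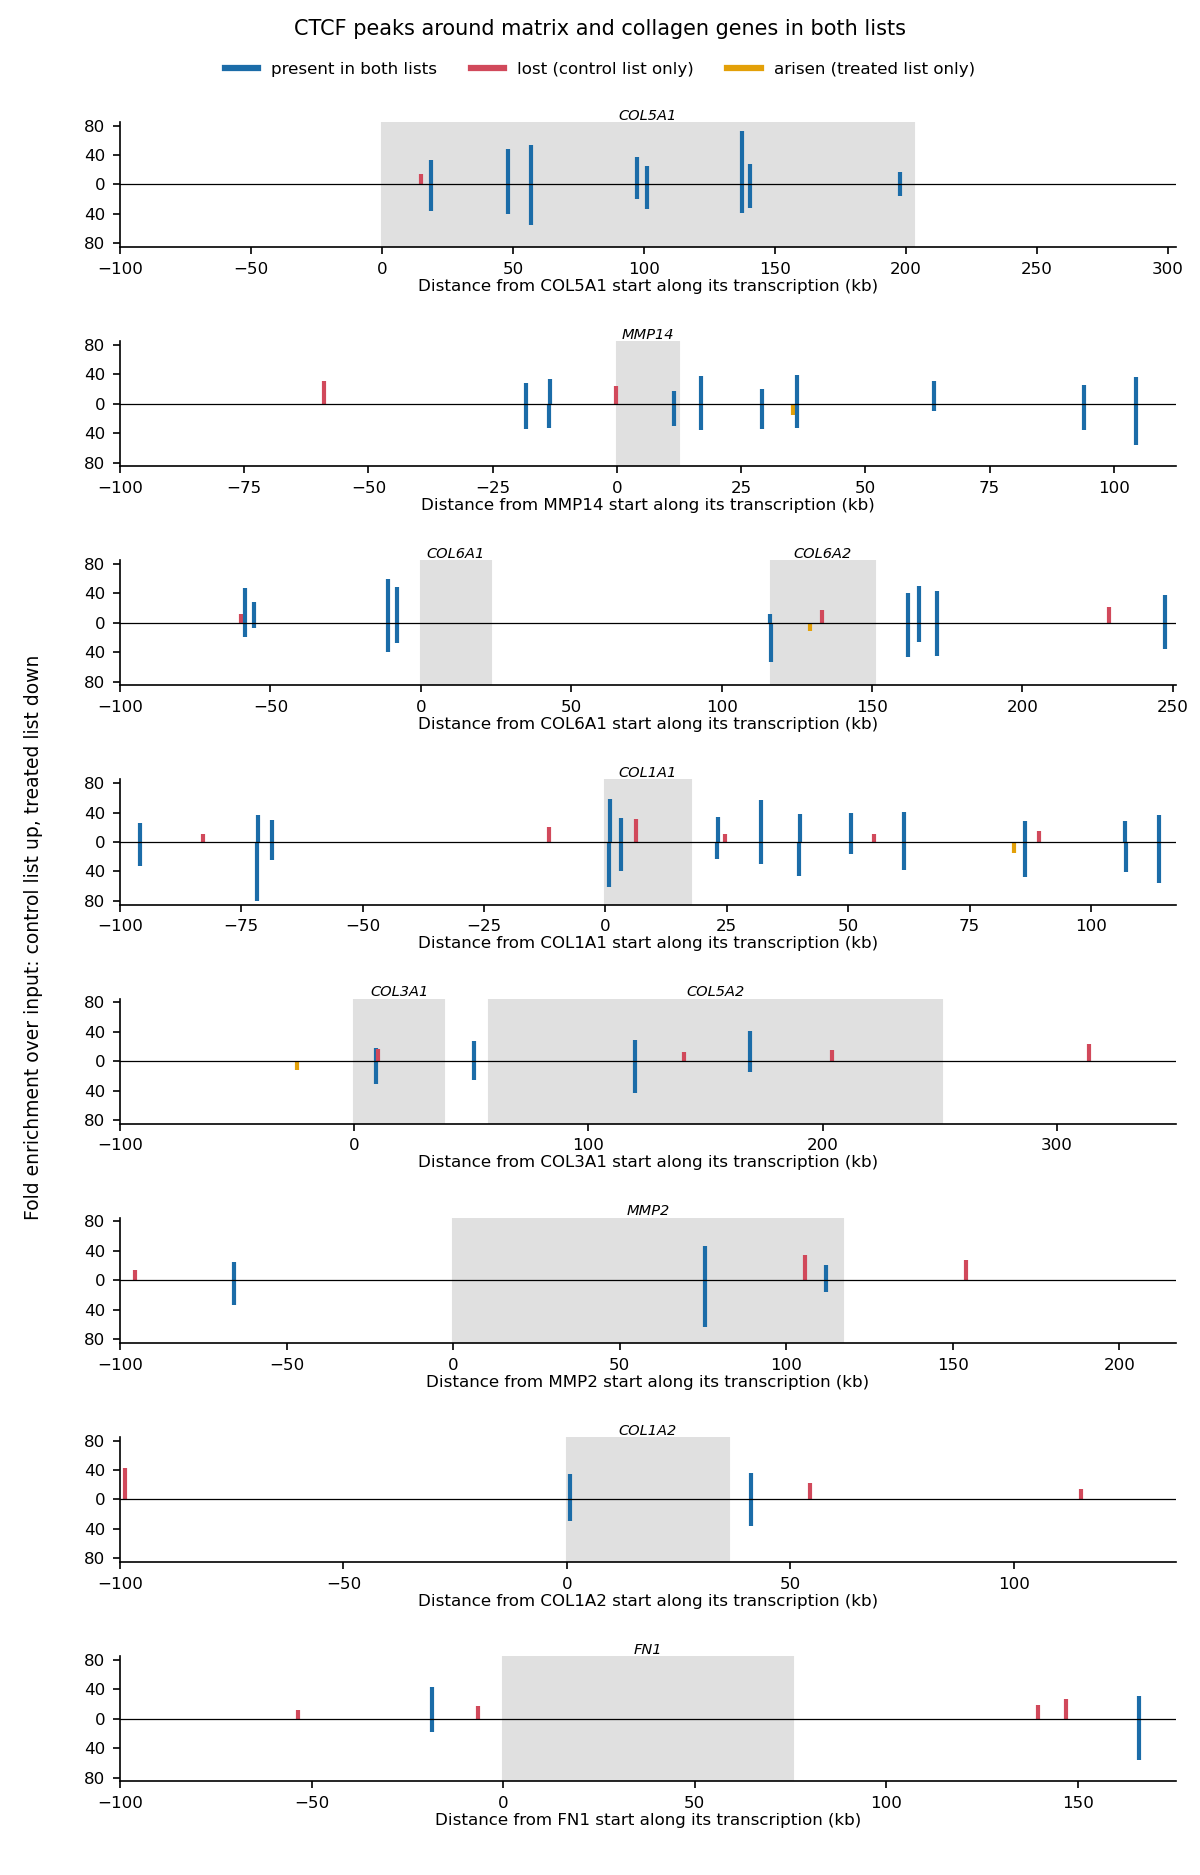
Position and strength of the CTCF peaks in the 8 windows. Each panel shows 1 window, with the distance from the start of the named gene in kb on the horizontal axis; bars above the line give the fold enrichment over input in the control list and bars below it that in the treated list, and grey areas are member genes. Blue bars are peaks of both lists, red bars the 26 lost peaks and yellow bars the 4 arisen peaks; in COL5A1 all 9 control peaks fall inside the gene and 8 of them are blue.

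The windows ranged from 1 peak lost of 9 to 4 lost of 6. COL5A1 lost 1 of 9 peaks (11.1%, interval 1.99 to 43.5), MMP14 2 of 11 (18.2%), COL6A1 with COL6A2 3 of 12 (25%) and COL1A1 6 of 19 (31.6%). The other windows were COL3A1 with COL5A2 at 4 of 8 (50%), MMP2 at 3 of 6 (50%), COL1A2 at 3 of 5 (60%) and FN1 at 4 of 6 (66.7%, interval 30.0 to 90.3). The intervals of the lowest and the highest window overlapped, so the order rests on few peaks. Inside the 10 gene bodies 7 of 24 control peaks were lost (29.2%, against 42.2% of all control peaks centred in a protein-coding gene), and in the flanks 19 of 52 (36.5%). The gene bodies contributed unequally, since COL5A1 alone held 9 of the 24 peaks, with 1 lost, and FN1 and COL6A1 held none. Of all control peaks within 100 kb of a protein-coding gene 40.9% were lost.

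**Figure D2:**
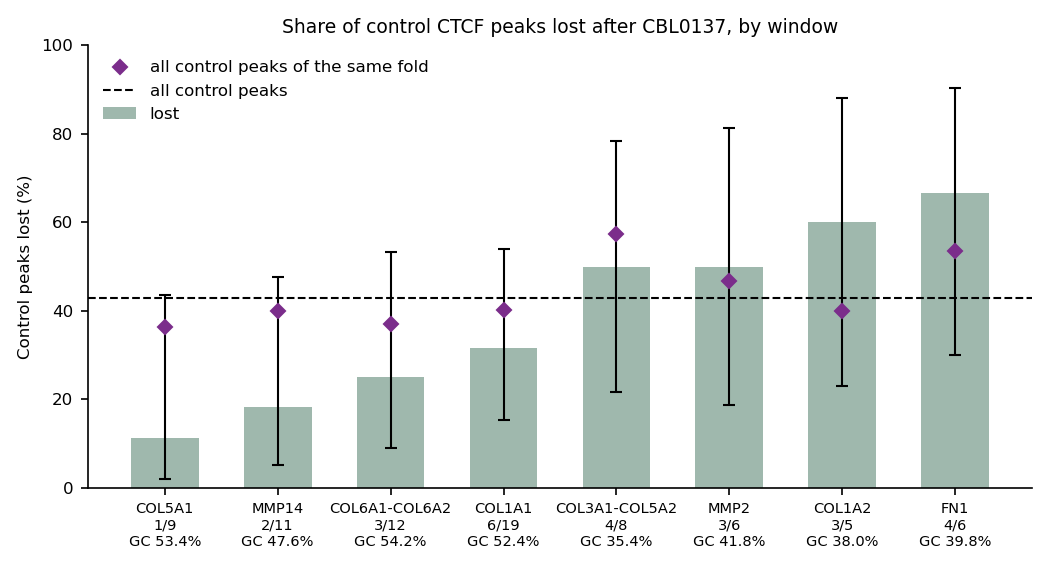
Share of control CTCF peaks lost in each window. Bars give the percentage lost on the vertical axis with 95% Wilson intervals, the label under each bar gives lost over control peaks and the GC content of the window, diamonds give the share lost among all control peaks of the same fold enrichment, and the dashed line is the 42.9% of all control peaks; the 4 windows on the left are those with a GC content over 45%.

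COL5A1 codes for the alpha1 chain of type V collagen, which starts and limits the growth of collagen fibrils. All 9 control peaks of its window (chr9:137433649-137836689) lay in introns of the gene itself, and none lay at a differential site of either direction. The lost peak, chr9:137548301-137548400, was the closest to the start, 14.7 kb inside the gene, and the weakest of the 9, with a fold enrichment over input of 14.9. The strongest, chr9:137670751-137671100, had a fold enrichment of 72.6, the highest of all 76 peaks, and was kept with identical borders. Its rank within its own list was at percentile 99.4 in control cells and 73.1 in treated cells. Percentiles here and below place a peak among the peaks of its own list and do not measure a change in binding, since the lists differ in length and content, and over all kept peaks the treated percentile was lower than the control one by a median difference of −9.21 points. The peak at chr9:137590351-137590750 also kept its borders, with percentiles of 94.0 and 92.8. The kept peak that ranked lowest relative to its control rank was chr9:137630951-137631300, at percentiles 72.8 and 29.1.

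COL1A1 and COL1A2 code for both chains of type I collagen, the main fibrillar collagen of connective tissue, and each had a kept CTCF peak in an intron just inside its start. At COL1A1 the peak chr17:48277801-48278500 was centred 843 bp inside the gene, with a fold enrichment of 58.9 in the control list and 61.6 in the treated list. These values stood at percentiles 96.7 and 96.2 of their own lists. At COL1A2 the peak chr7:94024751-94025100 was centred 718 bp inside the gene and had the same borders in both lists. Its fold enrichment of 34.3 in the control list stood at percentile 65.2, and that of 29.7 in the treated list at percentile 54.7. Neither of these peaks lay at a differential site.

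The nearest control peaks upstream of both type I collagen genes were lost. For COL1A1 this was chr17:48290451-48290650, 11.6 kb upstream, with a fold enrichment of 20.6 and a site higher in control cells. Inside the gene, chr17:48275451-48276000 was kept, at percentile 59.2 in the control list and 72.9 in the treated list. The peak chr17:48272601-48272800, 6.29 kb inside the gene, was lost from a fold enrichment of 31.0, the strongest lost peak of that window, and lay at a site higher in control cells. For COL1A2 the lost upstream peak, chr7:93925201-93925400, had a fold enrichment of 42.0, at percentile 81.5, the strongest of all 26 lost peaks. The next control peak upstream, chr7:93918251-93918700, lay 5.51 kb outside the window and was lost as well, from a fold enrichment of 37.6. Downstream of COL1A2 the peak 41.3 kb from the start was kept at percentiles 69.6 and 68.2, while chr7:94078451-94078800 and chr7:94139301-94139450, in an untranslated exon of CASD1, were lost from fold enrichments of 21.8 and 13.6.

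The COL1A1 window (chr17:48161462-48378993) was the densest, with 19 control and 14 treated peaks. Of its 13 kept peaks, 5 lay at a site higher in control cells. Among these, chr17:48228251-48228650 stood at percentile 77.8 in the control list and 20.2 in the treated list, and chr17:48246701-48247100, in an untranslated exon of SGCA, at 96.1 and 55.5. The peaks chr17:48255701-48256100 and chr17:48347351-48347850 stood at percentiles 64.3 and 53.1 in the control list and at 38.5 and 42.3 in the treated list. The last of them, chr17:48374701-48375250, ranked higher in the treated list, at percentile 61.3 against 41.2, although the direct comparison placed a site higher in control cells within it. The treated list held 1 arisen peak here, chr17:48194651-48194850 in an intron of SAMD14, with a fold enrichment of 15.2. Lost peaks at sites higher in control cells also lay in introns of PPP1R9B (chr17:48223651-48223800) and TMEM92-AS1 (chr17:48361901-48362000), with fold enrichments of 10.6 and 11.2.

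COL3A1 codes for type III collagen and COL5A2 for the alpha2 chain of type V collagen, and the neighbouring genes share a window (chr2:189739099-190190038) with a GC content of 35.4%, the lowest of the 8. In an intron of COL3A1, 9.25 kb inside the gene, chr2:189848201-189848500 was kept as a treated peak of 100 bp, against 300 bp in control cells, and lay at a site higher in control cells. The peak next to it, chr2:189849001-189849200, was lost from a fold enrichment of 16.5. In introns of COL5A2, 2 of 4 peaks were lost, chr2:189979901-189980150 and chr2:190042851-190043050, with fold enrichments of 12.9 and 15.2. The kept peak chr2:190007801-190008300, the strongest of the window with a fold enrichment of 40.7, stood at percentile 79.2 in the control list and 17.6 in the treated list and lay at a site higher in control cells. The kept peak chr2:189959051-189959300 held an exact consensus match, lay at no differential site and stood at percentiles 51.0 and 80.6. Between the genes chr2:189889951-189890350 was kept at percentiles 47.4 and 45.4, at a site higher in control cells, and upstream of COL5A2 chr2:190152651-190152950 was lost from 22.7. An arisen peak, chr2:189814651-189814800, lay 24.4 kb upstream of COL3A1 with a fold enrichment of 11.4.

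COL6A1 and COL6A2 code for the alpha1 and alpha2 chains of type VI collagen and share the window chr21:47301684-47652762. No peak of either list lay inside COL6A1. At COL6A2 the peak chr21:47517851-47518000, centred 0.101 kb upstream of the start, showed the largest difference in rank of the 50 kept peaks. Its fold enrichment of 12.1 stood at percentile 6.87 of the control list, and that of its treated partner, 52.6, stood at percentile 90.8 of the treated list. The treated peak was 300 bp wide, against 150 bp, and a site higher in CBL0137-treated cells, chr21:47517851-47518100, overlapped it. A second such site, chr21:47530951-47531050, lay on an arisen peak in an intron of COL6A2 with a fold enrichment of 11.2, while chr21:47534951-47535050, in an intron 17.0 kb inside the gene, was lost from a fold enrichment of 17.6.

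Of the 9 kept peaks of this window, 2 ranked higher in the treated list than in the control list, the COL6A2 start and chr21:47563451-47563750 in an intron of FTCD, and the median difference was −22.1 percentile points. The strongest, chr21:47390501-47391000 upstream of COL6A1, stood at percentiles 96.7 and 74.6. In an intron of PCBP3, chr21:47343051-47343500 stood at 88.2 and 29.7, and in an intron of FTCD chr21:47567301-47567650 stood at 91.7 and 44.8. Both lay at sites higher in control cells. The strongest lost peak, chr21:47630401-47630650 in an intron of LSS, had a fold enrichment of 21.7 and also lay at a site higher in control cells.

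FN1 codes for fibronectin, and no CTCF peak of either list lay in its gene body. In its window (chr2:216125163-216400796), 4 of 6 flanking peaks were lost. The closest to the start, chr2:216307351-216307500, 6.63 kb upstream, was lost from a fold enrichment of 17.4. The next, chr2:216319151-216319550, 18.6 kb upstream, was kept, but stood at percentile 83.4 in the control list and 26.7 in the treated list. Both lay at sites higher in control cells. Beyond the gene's end, chr2:216153901-216154100 and chr2:216161101-216161300 were lost from fold enrichments of 26.5 and 18.4, also at sites higher in control cells, while chr2:216134551-216135000 was kept at percentiles 57.6 and 93.2.

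The metalloproteinase windows kept 9 of 11 peaks at MMP14 and 3 of 6 at MMP2. The intervals of their lost shares, 5.14 to 47.7 and 18.8 to 81.2, overlapped, so no difference can be read. At MMP14 (chr14:23205769-23418250), the peak chr14:23305451-23305750, centred 0.169 kb upstream of the start, was lost from a fold enrichment of 24.01, at percentile 36.8, and lay at a site higher in control cells. It was the only lost peak among the 4 peaks centred within 1 kb of a member's start. Over the genome, 899 of the 3207 control peaks centred within 1 kb of a protein-coding gene start were lost. With 4 peaks, no difference from that share can be read. The strongest lost peak of the window, chr14:23246651-23247000 in an intron of SLC7A7, had a fold enrichment of 30.7 and also lay at a site higher in control cells. Inside MMP14 the intronic peak chr14:23317051-23317300 was kept at a site higher in CBL0137-treated cells, with percentiles of 17.5 and 56.2. The strongest kept peak, chr14:23341751-23342150 in a coding exon of LRP10, stood at percentiles 76.7 and 63.1, and an arisen peak of fold enrichment 14.9, chr14:23341101-23341250, lay beside it in an untranslated exon of LRP10. The peak in an untranslated exon of RBM23, chr14:23369401-23369800, was kept at percentiles 55.4 and 3.91, at a site higher in control cells.

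At MMP2 (chr16:55323612-55640603) 3 of 6 peaks were lost, each at a site higher in control cells. Of these, chr16:55529001-55529250 lay in an intron and had a fold enrichment of 34.0. The others were chr16:55328051-55328300, with a fold enrichment of 14.6, and chr16:55577451-55577700 in an intron of LPCAT2, with 27.0. The strongest peak, chr16:55498951-55499450, was kept and stood at percentiles 87.7 and 96.9. The peak chr16:55357651-55357950 was kept at a site higher in CBL0137-treated cells, at percentiles 39.97 and 61.8. The annotated gene begins with a transcript at position 55423612, whereas all its other coding transcripts start from 55512742 onward.

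The peaks on each side of a gene start set the interval in which the start lies, and this interval was measured in both lists. The nearest treated peak upstream of COL1A2 lay 307 kb away, against 98.9 kb in the control list, and the whole interval was 308 kb against 99.6 kb. For COL1A1 the interval was 69.5 kb in the treated list and 12.4 kb in the control list, for COL5A2 269 kb and 109.85 kb and for MMP14 24.98 kb and 11.6 kb. These 4 intervals were more than 2 times as wide in the treated list, which held for 26.5% of 20016 protein-coding genes. FN1 had intervals of 185 kb and 146 kb, and COL5A1 of 211 kb and 207 kb. Those of COL6A1 and MMP2, 124 kb and 141 kb, were the same in both lists. With an arisen peak on one side, the interval from the annotated start was narrower in the treated list for COL6A2, at 13.1 kb against 17.1 kb, and for COL3A1, at 33.6 kb against 199 kb.

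Over the 10 genes the median interval was 117 kb in the control list and 133 kb in the treated list, and 6 of 10 were wider in the treated list. The direction of the medians turned when the starts of all coding transcripts were used, with 104.7 kb in the control list and 80.3 kb in the treated list. This does not mean that the intervals narrowed gene by gene. From every coding start, those of COL1A2, COL5A1, COL5A2, FN1 and MMP14 were wider in the treated list. Only COL3A1, at 33.6 kb against 199 kb, was narrower from every coding start. That narrow interval rested on the arisen peak chr2:189814651-189814800, at percentile 7.4 of the treated list. With treated peaks limited to an FDR of at most 1e-05, 0 arisen peaks remained in the windows. The medians were not computed without this peak, so their reversal cannot be put down to the choice of start alone. Over all protein-coding genes the medians were 62.2 kb and 94.7 kb, and 69.2% were wider. A peak within 1 kb of the start was present for 4 of the 10 genes in the control list and 3 in the treated list, against 16.9% and 14.6% of all protein-coding genes. Several intervals depended on the start chosen. From the second coding start of COL1A1, at 48277552, the interval was 2.43 kb in the control list and 2.38 kb in the treated list. From the COL6A2 start at 47518711 the values were the same as above, whereas from those at 47531391 and 47540474 the control intervals were 17.1 kb and 28.6 kb and the treated interval was 32.6 kb. For MMP2 and COL5A2 the annotated start lies far from that of other transcripts. From the MMP2 start at 55512742 the interval was 29.9 kb in the control list and 36.5 kb in the treated list. From the COL5A2 start at 190044605 the interval was the same as above, and the lost peak chr2:190042851-190043050 lay 1.66 kb inside it.

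**Figure D3:**
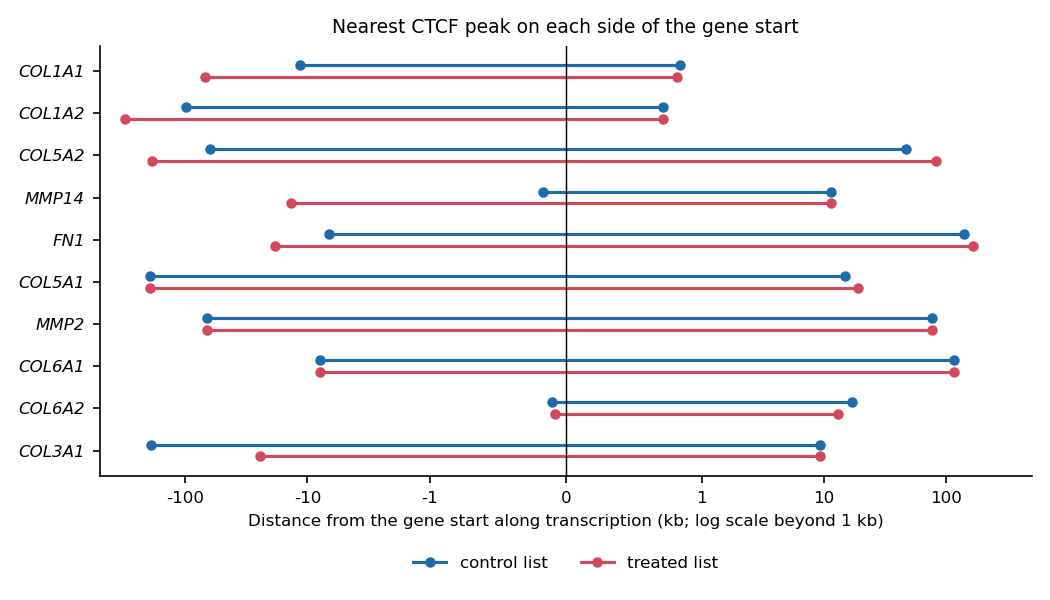
Nearest CTCF peak on each side of the start of the 10 genes. The horizontal axis gives the distance from the gene start along transcription in kb, on a log scale beyond 1 kb on either side; blue lines join the nearest peaks of the control list and red lines those of the treated list. The red line is longer to the left at COL1A1, COL1A2, COL5A2, MMP14 and FN1, shorter at COL3A1, and equal to the blue line at MMP2.

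Loss went with weak peaks at these loci as it did over the genome. The median fold enrichment of the 76 peaks was 29.1, against 28.7 for all control peaks. Kept peaks had a median fold enrichment of 35.0 and a median width of 400 bp in the control list, and lost peaks 17.5 and 200 bp. Over all control peaks the medians were 34.9 for kept and 20.6 for lost peaks. Above the median fold enrichment of all control peaks 4 of 39 members were lost (10.3%, against 20.1% of all), and below it 22 of 37 (59.5%, against 65.7%). The 4 strong lost peaks were those upstream of COL1A2, in an intron of COL1A1, in an intron of MMP2 and in SLC7A7 upstream of MMP14, given above.

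If each member had been lost as often as all control peaks of its group, among 10 equal groups by fold enrichment, 32.3 of 76 would have been lost (42.6%). The observed minus the expected share was −8.35 percentage points. The size of this difference depended on the measure of strength, since it was −2.23 points in groups by width and −3.49 points in groups by p-value. In 5 groups by GC content of the surrounding 100 kb, 27.2 lost peaks were expected (35.8%), and in groups by fold enrichment and GC content together 29.1 peaks (38.3%). All these values lie within the interval of the observed share.

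The GC content of the surroundings moved with the lost share. In the 4 windows with a GC content over 45%, COL5A1, MMP14, COL6A1 with COL6A2 and COL1A1, 12 of 51 peaks were lost (23.5%, interval 14 to 36.8), where peaks of the same fold enrichment gave 19.7. In the 4 windows under 45%, COL3A1 with COL5A2, MMP2, COL1A2 and FN1, 14 of 25 were lost (56%, interval 37.1 to 73.3), where peaks of the same fold enrichment gave 12.6. A site higher in control cells lay on 17 of 51 and 15 of 25 peaks, respectively. Over all control peaks the lost share went from 58.1% in the group with the lowest surrounding GC content, of 5 equal groups, to 25.9% in the group with the highest. Of the member peaks 43 belonged to that highest group, and 10 of these were lost (23.3%). Across the 8 windows the lost share and the GC content had a Spearman rho of −0.75 (Pearson r −0.85), and the lost share and the median fold enrichment a rho of −0.41. These describe 8 windows of the same pooled libraries. The split at 45% was chosen after the values of the windows were seen, so the gap between the intervals of the groups is no test. The part of GC content in the loss was not tested.

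**Figure D4:**
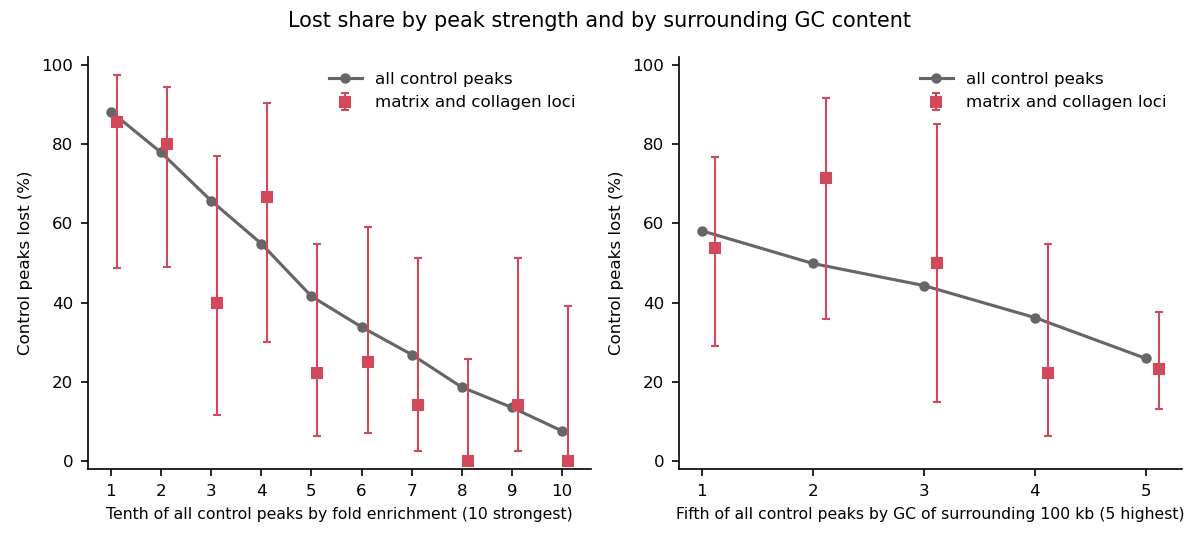
Lost share by peak strength and by GC content. The vertical axes give the percentage of control peaks lost; the left panel orders control peaks in 10 equal groups by fold enrichment and the right panel in 5 equal groups by GC content of the surrounding 100 kb, with grey circles for all control peaks and red squares with 95% Wilson intervals for the 76 member peaks. The grey circles decline from left to right in both panels. The red squares follow unevenly, and by GC content they stand at 53.8, 71.4, 50, 22.2 and 23.3%, the last for 10 lost of 43 members.

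The ranks of the kept peaks were then compared between the lists. The difference in percentile between a treated peak in its list and its control partner in its own had a median of −0.84 points for the 50 kept members and of −9.21 points, as given above, for all kept peaks, and 23 of 50 (46%) ranked higher in the treated list, against 35.2% of all. Within the group of highest GC content the medians were −1.20 points for 33 members and −6.00 points for all. Of the 50 kept peaks 32 were narrower in the treated list (64%, against 62.4% of all), 10 were equal and 8 were wider, and the median difference was −50 bp for members and for all kept peaks.

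**Figure D5:**
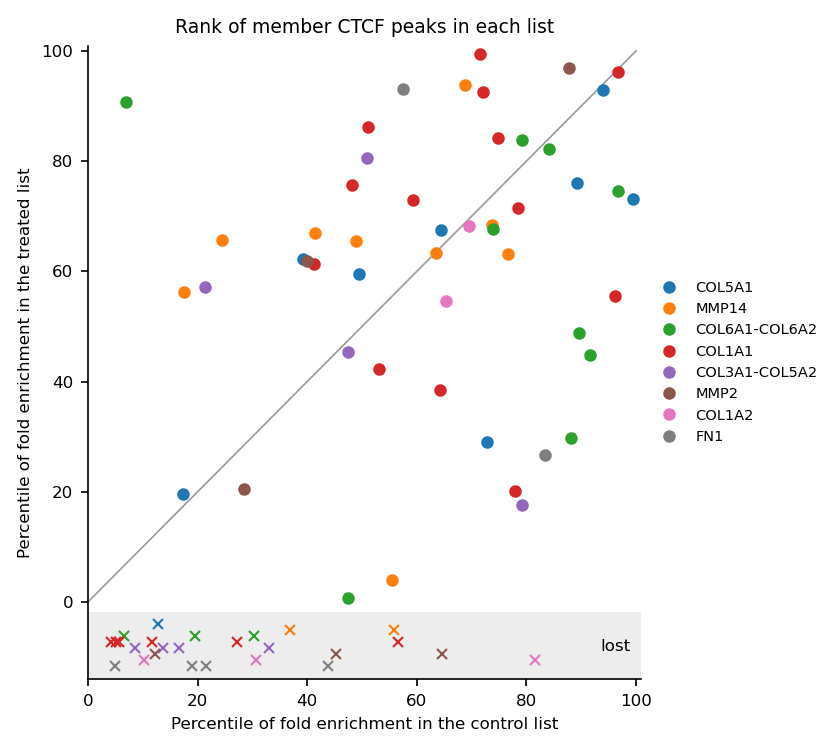
Rank of the 76 member peaks in each list. The horizontal axis gives the percentile of the fold enrichment within the control list and the vertical axis that of the treated partner within the treated list, with colours for the 8 windows and a line of equal rank; crosses in the grey band are the 26 lost peaks, placed by their control percentile only. The green point at the upper left is the COL6A2 start, at percentiles 6.87 and 90.8, and most crosses lie to the left.

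A match to the CTCF core consensus within 200 bp of the centre was found for 37 of the 76 control peaks (48.7%, against 49.0% of all control peaks and 2.78% of windows 10 kb away from peaks). It was found for 28 of 50 kept peaks (56%, against 62.2% of all kept peaks) and for 9 of 26 lost peaks (34.6%, against 31.5% of all lost peaks). The search reached beyond the borders of narrow peaks, and the match of the lost COL1A1 peak chr17:48223651-48223800 lay outside its borders. Within the borders, 28 of 50 kept and 8 of 26 lost peaks held a match (30.8% of the lost peaks, against 30.3% of all lost peaks). Counting only the best match of each peak, 18 of the 37 lay on the plus strand. The match was exact in 7 peaks, and all 7 were kept. The upper bound of the Wilson interval for a lost share of 0 of 7 was 35.4%, and 12.7% of the 6578 control peaks with an exact match were lost. The 7 exact matches are shown because they are the sites closest to the consensus, with the match in capitals and 9 bases on each side.
COL1A1, chr17:48164984-48165013, minus strand: gtcctgctgCCAGTAGGGGGCagcctggga
COL1A1, chr17:48217404-48217433, plus strand: ttcatctagCCACCAGGGGGCgaccacgcg
COL3A1-COL5A2, chr2:189959200-189959229, plus strand: ttgaggttgCCACTAGGTGGCgatgtttaa
COL5A1, chr9:137670905-137670934, plus strand: aagttctgaCCACCAGAGGGCagccggcag
COL6A1-COL6A2, chr21:47563579-47563608, plus strand: tgggcagggCCACTAGAGGGCtccttggtc
MMP14, chr14:23369595-23369624, minus strand: cagatctttCCAGCAGATGGCactatgaca
MMP2, chr16:55499200-55499229, plus strand: caaaagtggCCACCAGATGGCgcagcctat

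The matches of the 9 lost peaks are shown for comparison, in the same way. Each differs from the consensus at 1 position, and each of these peaks lay at a site higher in control cells. Such a site lay on 78.4% of all lost peaks, with or without a match, and its share among all lost peaks with a match was not measured. The match of MMP14 is the one printed above within its start sequence.
COL1A1, chr17:48223837-48223866, minus strand: tgctgctgcCCACCAGGGTGCccacaaggt
COL1A1, chr17:48290533-48290562, minus strand: ggggaagccCCAGCAAGGGGCttcccctca
COL1A2, chr7:94078616-94078645, plus strand: ctattttcaCCAGTGGGTGGCaatctcaac
COL3A1-COL5A2, chr2:189979996-189980025, plus strand: agttcttaaTCACTAGATGGCagaccaaat
COL3A1-COL5A2, chr2:190152799-190152828, minus strand: attccataaACAGCAGGTGGCatactttct
COL6A1-COL6A2, chr21:47630518-47630547, minus strand: cccacgcatCCACCTGAGGGCagcactgct
FN1, chr2:216161200-216161229, minus strand: aacacaccaCCACTAGGGAGCggtaaaggt
MMP14, chr14:23305589-23305618, plus strand: gcctcaaccCCTGCAGATGGCagcctgcac
MMP2, chr16:55577561-55577590, minus strand: taaactaagCCACCAGAGGTCcccacatcc

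The first control peak beyond each border of the 8 windows was also followed, and 6 of these 16 were lost, where 42.9% of all control peaks were lost. Those next to COL5A1, on both sides, were kept, as were those next to MMP2 and COL1A1, while both next to COL3A1 and COL5A2 were lost, with fold enrichments of 9.22 and 15.01. For MMP14 the upstream one was lost from a fold enrichment of 55.4 and for FN1 the one beyond the gene's end from 46.3.

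A wider list of 39 matrix genes, which covers other collagens, laminins, proteoglycans, integrins, inhibitors of metalloproteinases and collagen-modifying enzymes, gave 36 windows. Of their 293 control peaks 114 were lost (38.9%, interval 33.5 to 44.6), and the windows ranged from 0% to 75%. The share was above that of all control peaks in 16 of 36 windows. At the low end, ITGA5, TGFB1 and BGN each lost 1 peak, of 11, 11 and 10, and at the high end ITGA2 lost 9 of 12 and FBN1, the gene of the microfibril protein fibrillin, 6 of 8.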

How the data were processed

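CTCF ChIP-seq of HT1080 cells comprised 8 libraries (2 ChIP and 2 input replicates per condition), assigned by their labels. The authors mapped reads to hg19 with Bowtie2 2.2.3, removed non-unique reads and duplicates (SAMtools 1.5) and called peaks with PePr on pooled replicates. The deposited control and treated lists have no header. Their columns were read, in broadPeak order, as the fold enrichment, a ratio of ChIP over input computed by the authors, and as a p-value and an FDR deposited by the authors. The values fit this reading, on which every fold enrichment and percentile rests, but the largest p-values, 9.99904e-06 and 9.99937e-06, lie far below the cutoff the methods state. The 2 lists of the direct comparison hold fold, p-value and FDR of one condition over the other, which were not used here; only site positions were. Depth per library is stated by the study but not contained in these lists, and was not used here. Fold enrichments were ranked within their own list, never divided between lists.

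Members were peaks overlapping a gene body (GENCODE v44lift37 on GRCh37) plus 100 kb; any overlap between lists made a peak kept. The expected share came from all control peaks in 10 equal groups of fold enrichment. GC content was taken over 100 kb without the central 2 kb, and 26 peaks per list on other contigs were left out of sequence measures. Most named peaks were taken from the following kinds. They were peaks nearest each start, the strongest kept and lost peak per window, arisen peaks and peaks inside member genes. Peaks at differential sites and the first peaks outside were the other kinds. Not every peak of these kinds is named. The members and gene lists were chosen with earlier results of these data known. The grouping of windows at 45% GC was chosen after their values were seen. Routines were tested on simulated data. Versions were samtools 1.23.1, pysam 0.24.0, Python 3.11.15, matplotlib 3.10.9, scipy 1.17.1, pandas 2.3.3 and numpy 2.4.6.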

Additional observations from a re-analysis of the deposited data

How the results depend on the processing

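The lost share stayed below that of all control peaks, and below that of peaks of equal strength, under every alternative that was run. Leaving out each window in turn gave lost shares from 31.4% to 37.3%. With an overlap over 50% of the larger peak it was 38.2% (50.7% of all control peaks). The control list shortened by fold enrichment to the length of the treated list gave 12% (24.6% of all such peaks), and control peaks at an FDR of at most 1e-05 against the whole treated list 17.3% (29.3% of all such peaks). With that FDR in both lists the difference from all control peaks was −19.0 points. Gene bodies alone held 24 control and 19 treated peaks, 1 of them arisen, and 25% of these control peaks lay at a site higher in control cells. Windows of 50 kb held 50 control peaks, and windows of 200 kb held 83 treated peaks, 8 of them arisen. Arisen peaks numbered 7 with the 50% overlap, 4 with the FDR limit in both lists and 0 with it on treated peaks only, against the whole control list. The consensus was present in 9.21% of control peaks with no mismatch and in 84.2% with 2. With the starts of all coding transcripts the median interval was 104.7 kb in the control list and 80.3 kb in the treated list, which reversed the treated minus control difference from 15.8 to −24.4 kb. Only COL3A1 was narrower in the treated list from every coding start, and its interval there rested on 1 weak arisen peak. The medians were not computed without that peak. The span of the transcript with the longest coding sequence, an alternative chosen after seeing the data, gave a lost share of 32.9%. No paired analysis was possible because the lists pool the replicates, and leaving out a replicate was not run for the same reason. A peak missing from the treated list was not called there, and the lists do not show how much signal remained.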
